A study of Mus musculus with 16 samples.

Results

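The cytosolic sulfotransferases are a family of liver enzymes, and 8 of their genes were followed here: Sult3a1, Sult2a8, Sult2a1, Sult1a1, Sult1b1, Sult1c2, Sult1d1 and Sult5a1. They were taken by symbol from a deposited table of 35275 Ensembl gene IDs, and all 8 were found. Its unit is FPKM, which divides a gene's fragments by its length in kilobases and by the library's counted fragments. The family was chosen by the measured ethanol difference of Sult3a1 and Sult2a8 in WT mice, which stood out in an earlier look, so the values of that comparison are given for the 8 genes as a description, without a test. For the tests a gene needed an FPKM of 1 or more in 4 or more libraries of 16. All 8 met this, among 11298 genes in all.

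Liver RNA came from mice with an intact Zfp36l1 gene (WT) and from mice with a liver-specific deletion of Zfp36l1 (LKO), a gene for a protein that binds AU-rich messenger RNA and shortens its life. Each genotype was kept on control diet or on ethanol diet, which gave 4 groups of 4 libraries: WT control, WT ethanol, LKO control and LKO ethanol. The driver of the deletion, the sex, age and strain of the mice, the composition of the diets and the length of feeding are not stated in the labels used here. Libraries are numbered 1 to 4 within a group in the order of the records, without pairing. The labels do not state that each library came from a separate animal, so p-values measure the spread between these libraries, which may be technical.

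Sulfotransferases of the cytosol move a sulfo group from the donor PAPS, an activated form of sulfate, to a hydroxyl or amino group of a small molecule. The product is more soluble in water, is usually inactive and leaves the cell for bile or urine. In the liver the SULT1 enzymes act mainly on phenols, catechols and thyroid hormone, the SULT2 enzymes on hydroxysteroids and bile acids, and SULT3A1 on amines. In mice several of these genes are known for a strong sex bias: hepatic Sult2a1 and Sult3a1 are higher in females, and Sult2a8 is higher in males.

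Total reads per library were 9890475 in WT ethanol library 2 and at least 19069903 in the other 15. WT ethanol library 2 also stood apart in its share of mitochondrial reads, 22.5% against 3.64 to 6.97%, and in how well its genes ranked like those of other libraries, with a median Spearman rho of 0.691 against 0.905 to 0.951. It had the lowest Xist value of all, 6.62 FPKM. It also had the highest values of the Y-linked genes Ddx3y (1.43 FPKM, 65 reads), Eif2s3y (16 reads), Kdm5d (14 reads) and Uty (1 read). LKO control library 4 stood apart in another way: 12 of 12 male-biased liver genes were above their values in all 15 other libraries, and 8 of 13 female-biased genes were below them. Its Xist and Y-linked genes were within the range of the others. In the 15 libraries other than WT ethanol library 2, Xist was 13.7 to 49.4 FPKM, and these Y-linked genes at most 0.045 FPKM. The sex of the mice was not tested. WT ethanol library 2 and LKO control library 4 were both kept. Results for the 8 genes that were seen to rest on them are also given without them. In the genotype check, Zfp36l1 measured 0.572 to 1.76 FPKM in the 8 LKO libraries and 9.3 to 25.5 FPKM in the 8 WT libraries, and differed by −2.77 on the log2 scale on the control diet and by −3.02 on ethanol (limma with Benjamini-Hochberg adjustment, adjusted p = 0.001478 and 0.0004279). Markers of hepatocytes (8 of 8 present) summed to 43470 to 74010 FPKM in every library. Libraries 1 and 2 of a group had also been found to differ from libraries 3 and 4 over all genes, on no labelled batch, and differences within these sides are given for some of the genes.

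Regulatory sequence is shown for the 3 genes whose WT libraries did not overlap between diets, so that their upstream windows can be compared. They are the 250 bases before a RefSeq start (build GRCm38.p6), written 5′ to 3′ on the gene's strand, with matches to any searched motif in capitals. For Sult3a1 it is the plus strand of chr10:33857472-33857721, for Sult1b1 the minus strand of chr5:87538196-87538445, and for Sult2a8 the minus strand of chr7:14438552-14438801, before the inner of its 2 annotated starts, where up to 10 bases lie in a GENCODE exon. Sult1b1 also has 2 annotated starts. The windows before the other starts are not shown: that of Sult1b1 had 0 motif matches and that of Sult2a8 had 1, so the windows shown are those with more matches.
Sult3a1: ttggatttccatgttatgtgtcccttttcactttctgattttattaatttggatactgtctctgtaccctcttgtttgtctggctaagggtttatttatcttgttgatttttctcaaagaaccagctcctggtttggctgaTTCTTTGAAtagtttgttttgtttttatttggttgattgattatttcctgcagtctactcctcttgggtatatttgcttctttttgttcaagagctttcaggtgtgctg
Sult2a8: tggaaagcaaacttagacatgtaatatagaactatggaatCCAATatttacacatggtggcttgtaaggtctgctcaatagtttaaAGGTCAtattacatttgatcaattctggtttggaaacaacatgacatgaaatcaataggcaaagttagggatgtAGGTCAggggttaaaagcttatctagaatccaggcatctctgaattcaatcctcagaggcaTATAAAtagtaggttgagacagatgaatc
Sult1b1: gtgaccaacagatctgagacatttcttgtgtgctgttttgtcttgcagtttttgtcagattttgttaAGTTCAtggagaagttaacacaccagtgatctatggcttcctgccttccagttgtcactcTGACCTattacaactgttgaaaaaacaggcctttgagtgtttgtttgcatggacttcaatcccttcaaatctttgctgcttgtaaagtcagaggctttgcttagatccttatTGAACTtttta
The motifs were searched on both strands, and no matches overlapped in these 3 windows. The nuclear receptor hexamer AGGTCA was found 2 times in the Sult2a8 window and 1 time in that of Sult1b1, where it reads TGACCT. Its variant AGTTCA was found 2 times in that of Sult1b1. The STAT-type palindrome TTCNNNGAA was found in Sult3a1, from base 109 to base 101 before the start, and TATAAA and CCAAT in Sult2a8. Of all 32851 RefSeq windows of this length, 14% held AGGTCA, 11.8% AGTTCA, 7.0% TTCNNNGAA, 12.4% TATAAA and 33.8% CCAAT. Windows were matched for 7 of the 8 genes, all but Sult2a1. Of these, 2 had AGGTCA, 2 AGTTCA, 1 TTCNNNGAA, 1 TATAAA, 3 CCAAT, 2 the HNF1-type hexamer GTTAAT (6.4% of all windows) and 0 the antioxidant-type motif TGACNNNGC (10.2%). A match describes letters and is not a bound site.

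On the control diet, Sult2a1, Sult1a1 and Sult2a8 had the highest WT levels among the 8 genes. Per length, Sult2a1 had the highest mean of the 8 (362.9 ± 294.9 FPKM, SD, n = 4), then Sult1a1 (315.9 ± 42.4), Sult2a8 (198.9 ± 23.5), Sult1d1 (94.31 ± 19.04) and Sult3a1 (86.85 ± 56.52). Sult1b1 (12.13 ± 4.86), Sult1c2 (7.21 ± 3.13) and Sult5a1 (5.06 ± 4.48) were lower still. Between neighbours in this order, the ranges of the libraries overlapped for Sult2a1 and Sult1a1, for Sult1d1 and Sult3a1, and among the 3 lowest genes. The wide range of Sult2a1 (76.3 to 773.8 FPKM) also took in all of Sult2a8 and reached those of Sult1d1 and Sult3a1. On ethanol, Sult1a1 had the highest mean of the 8 in WT (607.5 ± 296.2 FPKM) and in LKO (974.7 ± 202.1), and its range was apart from that of the next gene, Sult2a1, in LKO only. LKO control livers had Sult1a1 first (449.1 ± 129.4) and Sult2a8 second (311.4 ± 81.1), with overlapping ranges. In bulk liver, fewer cells of a type and less RNA per cell cannot be told apart.

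**Figure D1:**
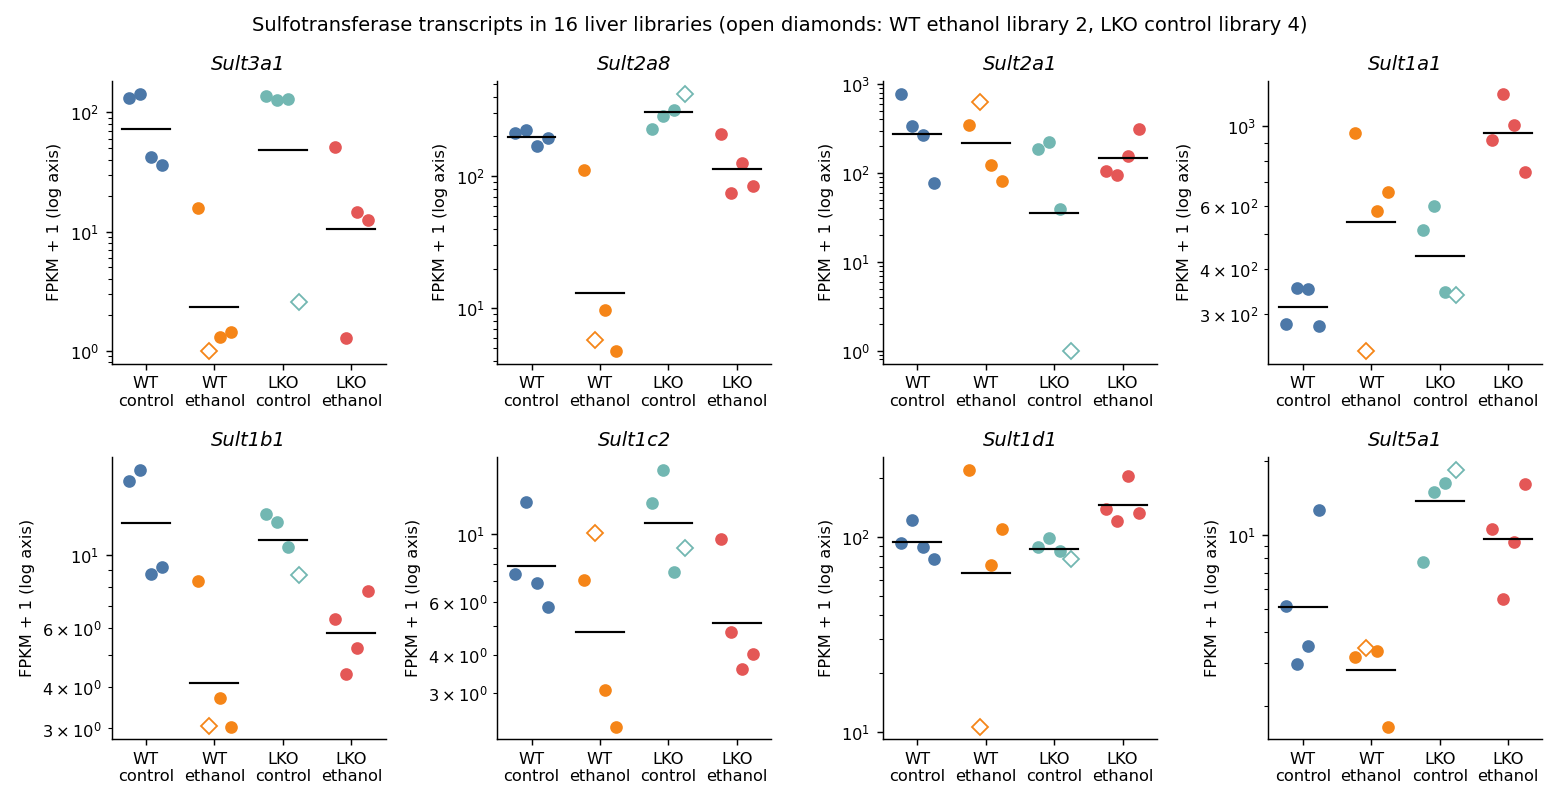
FPKM + 1 of the 8 sulfotransferase genes in each of the 16 liver libraries, on log axes. Points are libraries, bars the group means on the log scale, and open diamonds WT ethanol library 2 and LKO control library 4. Sult3a1 in WT lies at 34.9 to 142 FPKM on the control diet and at 0 to 14.7 on ethanol.

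Sult3a1 (ENSMUSG00000069668, chromosome 10, 33857721 to 33879532, plus strand, protein-coding, all positions on GRCm38) encodes an amine sulfotransferase. In WT control libraries 1 to 4 it measured 129.5, 141.6, 41.4 and 34.9 FPKM. In WT ethanol libraries 1 to 4 it measured 14.7, 0, 0.315 and 0.431 FPKM, which rest on 300, 0, 8 and 9 reads. All WT ethanol libraries were below all WT control libraries, and libraries 2 to 4 were close to nothing while library 1 was not. The reads absent from library 2 allow up to 0.29 FPKM there, the level of 3 reads, which covers counting error only. The WT mean was 22.5-fold lower on ethanol (3.87 ± 7.24 FPKM), and the log2 difference was −4.97 (SE 1.25). Library 1 held most of the WT ethanol mean: the mean was 349-fold lower without it, on the 0, 8 and 9 reads of libraries 2 to 4, and 16.8-fold lower without library 2.

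In LKO, Sult3a1 measured 135.0, 125.2, 127.1 and 1.56 FPKM on the control diet. On ethanol, LKO libraries measured 50.2, 0.272, 13.6 and 11.5 FPKM. LKO control libraries 1 to 3 lay close together and above every ethanol library, whereas control library 4 lay below 3 of them, so the groups overlapped. The log2 difference in LKO was −2.22 (SE 1.25, limma adjusted p = 0.6577), and the mean was 5.15-fold lower. Over the alternative fits this difference ran from −3.64 to −1.21. Without LKO control library 4 the groups did not overlap, the mean was 6.83-fold lower and the difference was −3.64 (SE 1.03, limma adjusted p = 0.2603). Within the sides the LKO difference was −4.02 for libraries 1 and 2 and −0.42 for libraries 3 and 4, the latter −3.25 without LKO control library 4. On ethanol, the mean of LKO was 4.89-fold that of WT, 76-fold without WT ethanol library 1, with overlapping groups in both cases and a difference of 2.16 (SE 1.25, limma adjusted p = 0.5132). Within the sides this difference was 1.03 for libraries 1 and 2, and 3.3 for libraries 3 and 4. Without WT ethanol library 2 it was −0.96 on the first side, which then held 1 WT ethanol library.

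Sult2a8 (ENSMUSG00000030378, chromosome 7, 14410686 to 14446769, minus strand, protein-coding) encodes a sulfotransferase of bile acids. WT control libraries 1 to 4 measured 210.8, 222.2, 168.0 and 194.5 FPKM, a narrow range. WT ethanol libraries measured 109.9, 4.77, 8.67 and 3.77 FPKM. Every WT ethanol library was below every WT control library, and library 1 was again far above the other 3. The mean was 6.26-fold lower on ethanol, 34.7-fold without WT ethanol library 1 and 4.88-fold without library 2, and the log2 difference with all libraries was −3.92 (SE 0.69).

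LKO control libraries measured 224.7, 285.4, 316.8 and 418.6 FPKM of Sult2a8, and LKO ethanol libraries 205.8, 73.2, 124.8 and 83.9 FPKM. The LKO diets did not overlap either, but the lowest LKO ethanol library (73.2 FPKM) was above the 3 lowest WT ethanol libraries. The mean in LKO was 2.55-fold lower on ethanol, with a log2 difference of −1.43 (SE 0.69, limma adjusted p = 0.5671). When the 8 LKO libraries were fitted alone the difference passed the threshold (limma adjusted p = 0.04879), as 2.2% of all genes did. On ethanol the LKO mean was 3.84-fold that of WT, a difference of 3.11 (SE 0.69, limma adjusted p = 0.1211), and the groups overlapped through WT ethanol library 1. Within the sides it was 2.29 for libraries 1 and 2 and 3.93 for libraries 3 and 4. It was 2.72 without WT ethanol library 2 (limma adjusted p = 0.1266), and the first side, left with 1 WT library, then gave 0.16. It was 4.14 without WT ethanol library 1 (limma adjusted p = 5.458e-05), and the fold of the means was 21.3, while 3.43% of all genes passed. The interaction, which is the ethanol difference in LKO minus that in WT, was 2.49 (SE 0.98, limma adjusted p = 0.9269), 3.52 without WT ethanol library 1 (limma adjusted p = 0.01369, with 0.0531% of all genes past the threshold) and 2.1 without library 2 (limma adjusted p = 0.9675). Both passes come from leaving out the WT ethanol library in which Sult2a8 was not low, and the low values of the others are those by which the gene was chosen, so nothing is read from them. On the control diet LKO was above WT in every library, by 224.7 against 222.2 FPKM at the nearest pair, with a difference of 0.62 (SE 0.69, limma adjusted p = 0.9997).

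Sult1b1 (ENSMUSG00000029269, chromosome 5, 87513339 to 87538195, minus strand, protein-coding) encodes an enzyme that sulfates thyroid hormone and small phenols. It measured 15.6, 17.0, 7.73 and 8.19 FPKM in WT control and 7.32, 2.05, 2.71 and 2.04 FPKM in WT ethanol libraries. In LKO it measured 12.2, 11.5, 9.57 and 7.66 FPKM on the control diet and 5.4, 3.38, 4.25 and 6.79 FPKM on ethanol. The ethanol libraries were below the control libraries in both genotypes, without overlap. The mean was 3.44-fold lower in WT (log2 difference −1.6, SE 0.33), 5.35-fold without WT ethanol library 1, and 2.07-fold lower in LKO (−0.93, SE 0.33, limma adjusted p = 0.3224). With a term for the sides and without WT ethanol library 2, the LKO difference passed the threshold (limma adjusted p = 0.03255), as 10.7% of all genes did.

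Sult1a1 (ENSMUSG00000030711, chromosome 7, 126672865 to 126676432, minus strand, protein-coding), encodes a phenol sulfotransferase and was higher on ethanol. It measured 281.4, 354.7, 350.5 and 277.1 FPKM in WT control and 957.0, 236.0, 581.2 and 655.9 FPKM in WT ethanol libraries. WT ethanol libraries 1, 3 and 4 were above all WT controls, and library 2 was the lowest of all 16. LKO control libraries measured 513.6, 600.2, 344.1 and 338.6 FPKM, and LKO ethanol libraries 915.0, 1231, 1007 and 746.0 FPKM. LKO ethanol libraries were all above the LKO controls, with a 2.17-fold higher mean and a log2 difference of 1.14 (SE 0.36, limma adjusted p = 0.2286). Without WT ethanol library 2, which enters the shared estimate of the spread, the adjusted p for LKO was 0.01666 (limma), and 3.62% of all genes passed. In WT the mean was 1.92-fold higher on ethanol (log2 difference 0.79, SE 0.36), and 2.31-fold without library 2, when the groups no longer overlapped.

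Sult1d1 (ENSMUSG00000029273, chromosome 5, 87554645 to 87569027, minus strand, protein-coding), whose enzyme sulfates catecholamines such as dopamine, lies on the same chromosome as Sult1b1, upstream of its start. It measured 92.3, 120.9, 88.0 and 76.0 FPKM in WT control and 219.6, 9.69, 71.1 and 108.1 FPKM in WT ethanol libraries. The WT ethanol libraries ran from the highest to the lowest value of all 16, so the diets overlapped. LKO control libraries measured 87.4, 97.0, 83.8 and 76.1 FPKM, and LKO ethanol libraries 138.4, 120.0, 204.4 and 130.6 FPKM, without overlap. The LKO mean was 1.72-fold higher on ethanol, with a log2 difference of 0.75 (SE 0.60, limma adjusted p = 0.8344). In WT the log2 difference was −0.52 although the arithmetic mean was 1.08-fold higher, and without library 2 the mean was 1.41-fold higher. Within the sides the WT difference was −1.14 and 0.1, and the first was 1.05 without library 2.

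Sult5a1 (ENSMUSG00000000739, chromosome 8, 123140192 to 123158315, minus strand, protein-coding) encodes a family member whose substrates are little known. It measured 4.1, 1.97, 2.53 and 11.6 FPKM in WT control and 2.19, 2.46, 2.36 and 0.655 FPKM in WT ethanol libraries. LKO control libraries measured 6.76, 13.9, 15.3 and 17.4 FPKM, and LKO ethanol libraries 9.5, 4.49, 8.29 and 15.1 FPKM. On ethanol every LKO library was above every WT library, whereas on the control diet WT library 4 reached into the LKO range. The LKO mean was 4.87-fold that of WT on ethanol (log2 difference 1.78, SE 0.43, limma adjusted p = 0.1598) and 2.64-fold on the control diet (1.42, SE 0.43, limma adjusted p = 0.9997). The difference on ethanol was 1.19 and 2.37 within the sides, and without WT ethanol library 1 it was 1.85 with a limma adjusted p of 0.04758, while 3.43% of all genes passed. The ethanol differences were −0.87 in WT and −0.5 in LKO (SE 0.43 each, limma adjusted p = 0.8671 for LKO). These are low levels, from 15 to 479 reads per library.

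Sult1c2 (ENSMUSG00000023122, chromosome 17, 53829637 to 53846339, minus strand, protein-coding), of a class that sulfates small phenols, measured 6.39, 11.8, 5.91 and 4.76 FPKM in WT control and 6.07, 9.09, 2.07 and 1.33 FPKM in WT ethanol libraries. LKO libraries measured 11.7, 15.3, 6.53 and 8.03 FPKM on the control diet and 8.67, 3.78, 2.61 and 3.04 FPKM on ethanol. The diets overlapped in both genotypes. The LKO mean was 2.3-fold lower on ethanol, with a log2 difference of −1.1 (SE 0.44, limma adjusted p = 0.4169) that was −1.08 and −1.11 within the sides. With a term for the sides and without WT ethanol library 2 it passed the threshold (limma adjusted p = 0.01084), as 10.7% of all genes did.

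Sult2a1 (ENSMUSG00000078798, chromosome 7, 13796246 to 13837409, minus strand, protein-coding) encodes the hydroxysteroid sulfotransferase that acts on dehydroepiandrosterone and bile acids. It belongs to a cluster of near-identical genes, which bears on how far its value can be told from that of its copies. The first 90 coding bases of Sult2a1, Sult2a2 and Sult2a8 show this, from the GENCODE M21 transcripts, with the bases that differ from Sult2a1 in capitals.
Sult2a1: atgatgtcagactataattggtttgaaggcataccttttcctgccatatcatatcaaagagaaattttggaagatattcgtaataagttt
Sult2a2: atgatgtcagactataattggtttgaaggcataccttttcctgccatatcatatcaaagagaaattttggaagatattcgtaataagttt
Sult2a8: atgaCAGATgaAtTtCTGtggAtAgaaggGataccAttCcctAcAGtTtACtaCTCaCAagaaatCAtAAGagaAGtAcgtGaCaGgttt
Sult2a2 differed from Sult2a1 at 0 of these 90 bases and Sult2a8 at 37. Sult2a1 (855 coding bases) was 97.9% identical to Sult2a2 over the 582 coding bases annotated for the latter. Over the coding sequence it was 94.9% identical to Sult2a5 and 69.4% to Sult2a8. Of the 50-base windows of its coding sequence, 33.4% were also present in another sulfotransferase, 28.9% in Sult2a2. For Sult3a1 this share was 8.2%, all with Sult3a2, and for the other 6 members it was 0%. How reads that fit several copies were counted is not given in the sources used here, so Sult2a1 and, to a lesser degree, Sult3a1 are uncertain in this respect.

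WT control libraries 1 to 4 measured 773.8, 334.0, 267.3 and 76.3 FPKM of Sult2a1, and WT ethanol libraries 344.1, 622.9, 121.4 and 80.6 FPKM. LKO control libraries measured 186.3, 223.8, 38.4 and 0 FPKM, and LKO ethanol libraries 103.9, 93.8, 153.2 and 311.2 FPKM. All groups overlapped, and the values spread over an order of magnitude within WT control alone. The 0 in LKO control library 4 is from 0 of 23942677 reads, which allows up to 0.123 FPKM. The log2 difference on the control diet, LKO minus WT, was −2.92 (SE 1.26, limma adjusted p = 0.9997), and −1.19 without LKO control library 4. The ethanol difference in LKO was 2.04 (SE 1.26, limma adjusted p = 0.7127), and 0.32 without that library. Within the sides it was −1.04 for libraries 1 and 2 and 5.13 for libraries 3 and 4, the latter 2.48 without LKO control library 4, so it did not hold on both. The Sult2a1 level was 0.587 to 2.23 times that of Sult2a2 in the 14 other libraries with both above 0, but 415 times in WT ethanol library 2, where Sult2a2 measured 1.5 FPKM.

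Counted together for ethanol against control in WT, 3 of the 8 genes were lower without overlap (Sult3a1, Sult2a8 and Sult1b1) and 0 were higher, while 10.1% of all genes tested did not overlap in this comparison, 4.45% lower and 5.62% higher. Without WT ethanol library 2, Sult1a1 was also higher without overlap, and the share of all genes was 20.7%, with 15.6% higher. These members were chosen through this comparison, so nothing is read from the count. Of all genes, 4.18% passed the threshold here. The median log2 difference was −0.79 over the 8 genes and −0.02 over all genes. Sult3a1 and Sult2a8, which drew attention to the family, were the outermost of the 8, followed by Sult1b1 at −1.6 and Sult5a1 at −0.87.

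**Figure D2:**
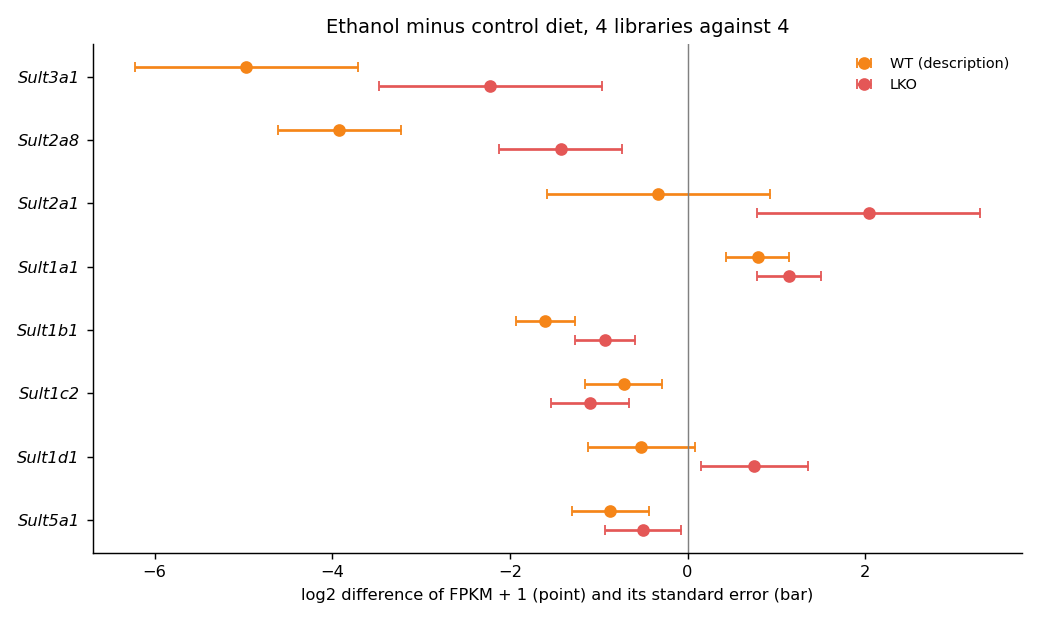
Log2 difference of FPKM + 1, ethanol minus control diet, for the 8 genes in WT and LKO, with the standard error of the limma fit over 16 libraries (4 per group). Sult3a1, Sult2a8, Sult1b1, Sult1c2 and Sult5a1 lie below 0 and Sult1a1 above 0 in both genotypes. The WT values are a description.

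For ethanol against control in LKO, limma called 0 of 8 genes at an adjusted p under 0.05, against 0.425% of all genes tested. At an unadjusted p under 0.05 there were 3 (Sult1a1 higher, Sult1b1 and Sult1c2 lower), against 9.19% of all genes. The alternative test, voom on whole reads, called 0, against 0.434% of all genes. Groups did not overlap for 4 of the 8 genes, against 12.3% of all genes: Sult2a8 and Sult1b1 were lower (4.14% of all genes), and Sult1a1 and Sult1d1 higher (8.15%). Without LKO control library 4, Sult3a1 joined those that were lower, and the share of all genes was 15.1%, with 5.55% lower. The median log2 difference was −0.72 over the 8 and 0.06 over all genes. With array weights, which count a library less the more it strays, limma called 3 of 8 genes against 7.69% of all genes.

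For LKO against WT on the control diet, limma called 0 of 8 genes, against 0.00885% of all genes. At an unadjusted p under 0.05 there were 2 (Sult5a1 higher, Sult2a1 lower), against 3.45%, and voom called 0, against 0.00885%. Sult2a8 alone did not overlap and was higher in LKO, against 9.25% of all genes, 1.61% higher. Sult3a1 changed sign with 1 library: its difference was −0.58 (SE 1.25) with all libraries and 0.83 without LKO control library 4. Within the sides it was −0.06 and −1.11, the latter 1.72 without that library. With array weights limma called 1 of 8 genes (Sult5a1), against 2.3% of all genes.

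On ethanol, limma called 0 of 8 genes between LKO and WT, against 0.0797% of all genes. At an unadjusted p under 0.05 there were 3 (Sult2a8, Sult5a1 and Sult1a1, all higher in LKO), against 11.9%, and voom called 0, against 0.0443%. Sult5a1 alone did not overlap and was higher in LKO, against 2.69% of all genes, 0.894% higher. Without WT ethanol library 1, 5 genes were higher without overlap (Sult2a8, Sult1a1, Sult1b1, Sult1d1 and Sult5a1), while 12.5% of all genes did not overlap and 2.64% were higher. Of the 8 differences only that of Sult2a1 was below 0, and the median was 0.99 against −0.03 over all genes. Without WT ethanol library 2 it was 0.44 against −0.23. The interaction called 0 of 8 genes, against 0% of all genes, with 1 (Sult2a8) at an unadjusted p under 0.05, against 3.2%. voom called 0 there as well. With array weights limma called 6 of 8 genes on ethanol, against 30.7% of all genes, and 1 in the interaction, against 4.48%. With the term for the sides and without WT ethanol library 2 it called 1 on ethanol (Sult5a1), against 1.58%. Both comparisons use the WT ethanol libraries that drew attention to the family, and array weights counted WT ethanol library 1 at 0.278.

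**Figure D3:**
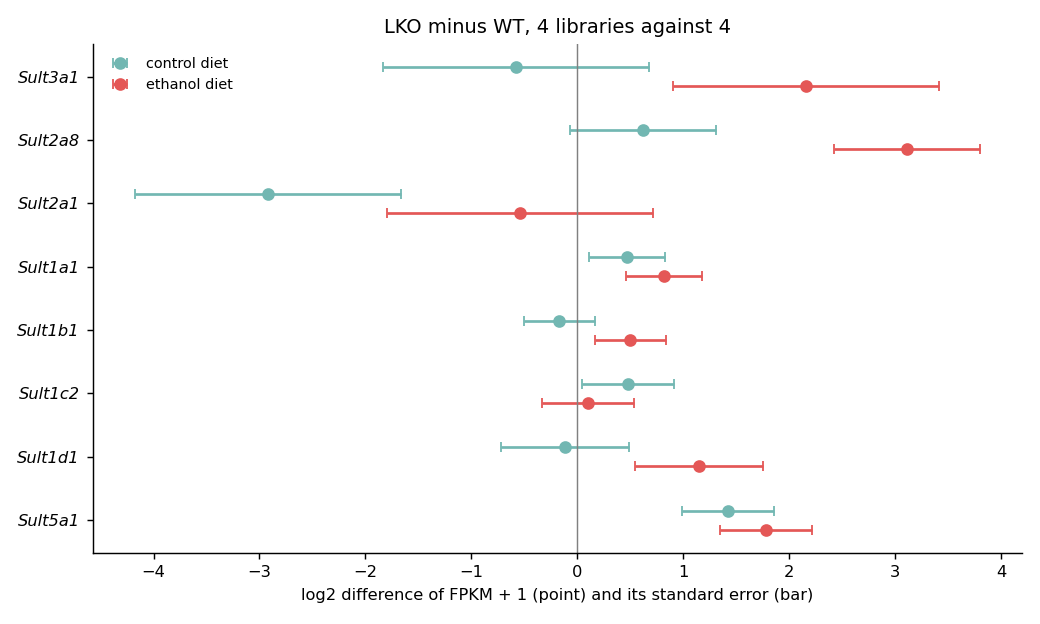
Log2 difference of FPKM + 1, LKO minus WT, for the 8 genes on each diet, with the standard error of the limma fit. On ethanol Sult2a8 (3.11), Sult3a1 (2.16) and Sult5a1 (1.78) lie farthest above 0, and on the control diet Sult2a1 (−2.92) lies farthest below.

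The 8 genes were also summed in each library, to set each gene's share beside the total. The sum was 1083 ± 357 FPKM in WT control, 1048 ± 411 in WT ethanol, 1090 ± 230 in LKO control and 1448 ± 102 in LKO ethanol (SD, n = 4 each). WT groups overlapped, from 683.6 to 1514 FPKM on the control diet and from 789.8 to 1661 on ethanol. In LKO, ethanol libraries (1308 to 1530 FPKM) overlapped the controls (868.0 to 1372) at their edge. Sult1a1 made up 31.6% ± 9.8 of the sum in WT control and 58.7% ± 23.0 in WT ethanol, and 40.7% ± 3.6 and 66.9% ± 9.9 in LKO. Sult2a8 made up 19.7% ± 6.2 in WT control, 2.17% ± 2.98 in WT ethanol, 30.4% ± 13.5 in LKO control and 8.43% ± 4.16 in LKO ethanol. Sult3a1 made up 7.48% ± 3.4 on the control diet and 0.244% ± 0.429 on ethanol in WT, and 8.57% ± 5.88 and 1.32% ± 1.51 in LKO. WT ethanol library 1 held most of that group's means, at 6.62% for Sult2a8 and 0.887% for Sult3a1. The other WT ethanol libraries were at most 1.1% and 0.0506%. The members chosen set these shares in WT, which are a description.

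**Figure D4:**
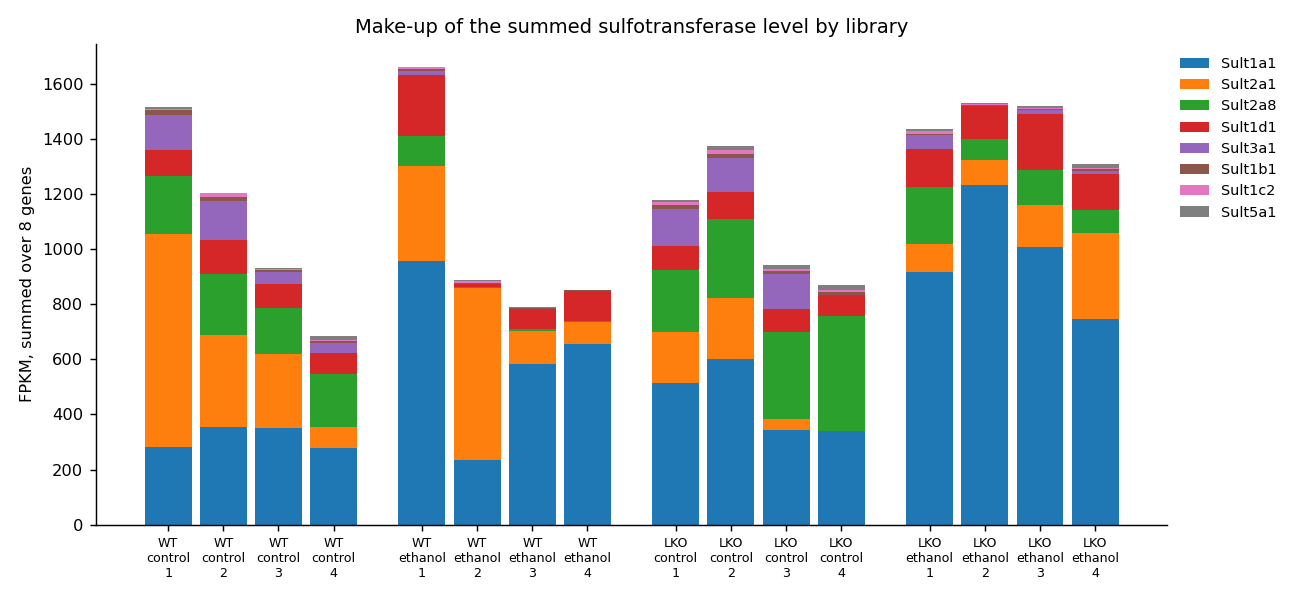
FPKM of the 8 genes stacked for each of the 16 libraries. Sult1a1 is the largest block in every LKO ethanol library, and Sult2a1 makes up 70.2% of the sum in WT ethanol library 2.

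Across the 16 libraries, which share the diet and genotype groups, Sult3a1 followed Sult1b1 most closely of the 8 (Spearman rho 0.9), then Sult2a8 (0.73, and 0.9 over the 14 libraries without WT ethanol 2 and LKO control 4). Sult2a8 and Sult1b1 gave 0.81. Sult1a1 went with Sult1d1 (0.8). Sult1a1 also went with Cyp2b10, the cytochrome P450 that is the classic target of the receptor CAR, at 0.78, and at 0.91 over 14 libraries. Cyp2b10 had means of 2.07 FPKM in WT control, 489.8 in WT ethanol, 4.27 in LKO control and 575.9 in LKO ethanol. Sult2a1 was close to none of the other 7, with rho from −0.46 (Sult5a1) to 0.26 (Sult1c2), and over 14 libraries from −0.31 (Sult5a1) to 0.45 (Sult1b1). With its near copy Sult2a2 it gave 0.67, and 0.91 over 14 libraries. These values describe libraries in 4 groups. A shared group alone can give such values, and its part was not tested.

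The nearest genes were sought among genes tested that have a symbol, with the 8 members and predicted genes (Gm or Rik names) left out. Those nearest to Sult3a1 by Spearman rho over 16 libraries were Acsm3 (0.956), Cyp2c40 (0.921), Dnajc28 and Sult2a7 (0.918 each) and Rmdn1 (0.912). Nearest to Sult2a8 were Ttc39c and Rgn (0.935 each), Ces3a (0.924), and Nxpe2 and Nat8f1 (0.912 each). Acsm3 is a medium-chain acyl-CoA synthetase, and Rgn encodes regucalcin. The nearest gene to each other member was Sult2a5 for Sult2a1 (0.879), H3f3b for Sult1a1 (0.947), Idh1 for Sult1b1 (0.959), Ebpl for Sult1c2 (0.941), Serpina3m for Sult1d1 (0.879) and Gch1 for Sult5a1 (0.888). Cyp2c40 had means of 256.0 FPKM in WT control, 53.1 in WT ethanol, 320.0 in LKO control and 165.0 in LKO ethanol.

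The other cytosolic sulfotransferases gave 7 genes that passed the filter, of 13 listed. Sult1e1, the oestrogen sulfotransferase, rose in WT on ethanol: it measured 3.62, 2.66, 1.5 and 0.114 FPKM in WT control and 31.4, 13.6, 4.48 and 15.7 FPKM in WT ethanol libraries, without overlap (log2 difference 2.46, SE 0.57, limma adjusted p = 0.02347). Sult2a7 fell in WT on ethanol, from 50.9, 22.6, 7.92 and 17.9 FPKM to 13.6, 0, 0.0459 and 0.056 FPKM (−3.41, SE 0.78, limma adjusted p = 0.02131). The groups of Sult2a7 overlapped through WT ethanol library 1, the same library that kept the most Sult3a1 and Sult2a8. Both calls stood without WT ethanol library 2, and 4.18% of all genes passed in this comparison with all libraries. The family was chosen through the same comparison and libraries. Sult2a7 also followed Sult3a1 (Spearman rho 0.918), so its call is no separate support. In LKO Sult1e1 and Sult2a7 differed by 1.91 (limma adjusted p = 0.1864) and −1.92 (limma adjusted p = 0.4259). In the other comparisons 0 of the 7 passed. Of all genes, 0.425% passed for ethanol in LKO and 0% in the interaction. Between genotypes, 0.00885% passed on the control diet and 0.0797% on ethanol. Sult3a2, the near copy of Sult3a1, measured 0.435 to 7.13 FPKM in WT control and 0 to 0.524 FPKM in WT ethanol libraries (−1.9, SE 0.74, limma adjusted p = 0.159). Sult2a2, the near copy of Sult2a1, was at 0 FPKM in LKO control library 4, as did Sult2a3, Sult2a5 and Sult2a6.

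The supply of the sulfo donor was followed in 13 kept genes of 17 listed, and 0 passed the threshold in any of the 5 comparisons, with 3 lower in WT on ethanol at an unadjusted p under 0.05, against 19.7% of all genes at that p. Csad, which makes hypotaurine on the way to taurine, differed most, by −2.24 in WT (SE 0.65, limma adjusted p = 0.06306) and −1.21 in LKO (limma adjusted p = 0.6293). Papss2, the main PAPS synthase of the liver, differed by −1.02 in WT (SE 0.47, limma adjusted p = 0.2372) and by −0.52 in LKO (limma adjusted p = 0.8781). Slc26a1, a sulfate transporter, differed by −1.55 in WT (limma adjusted p = 0.152) and by −0.16 in LKO (limma adjusted p = 0.9988). The sulfatase list, of genes for enzymes that remove sulfate groups and for factors that modify these enzymes, had 10 genes kept. Of these, 0 passed with all libraries. In WT 4 were higher on ethanol at an unadjusted p under 0.05, against the same 19.7% of all genes. Without WT ethanol library 2, where 9.48% of all genes passed, 3 rose in WT on ethanol, the lysosomal Arsa (1.69, limma adjusted p = 0.01113), Arsg (1.39, limma adjusted p = 0.00837) and Galns (1.03, limma adjusted p = 0.04623). None of the lists was chosen without knowledge of these data.

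Because 3 of the 8 genes are known for sex bias, their values were set beside lists of sex-biased liver genes. LKO control library 4 had the highest summed male-biased level of all, 1606 FPKM against at most 577.8 in the other 15, and a female-biased sum of 401.9 FPKM against 350.7 to 3075. In that library Sult2a8 (418.6 FPKM) and Sult5a1 (17.4 FPKM) were the highest of all 16, Sult2a1 was the lowest, at 0, and Sult3a1 was at 1.56 FPKM. The other library with a low female-biased sum was WT ethanol library 2, at 350.7 FPKM, where Sult3a1 was 0 but Sult2a1 was 622.9 FPKM. By group, the female-biased sum was 1376 to 2108 FPKM in WT control, 350.7 to 2307 in WT ethanol, 401.9 to 3075 in LKO control and 1710 to 2821 in LKO ethanol. The male-biased sum was 185.7 to 577.8, 96.9 to 248.2, 173.2 to 1606 and 125.5 to 199.8 FPKM in the same order. In these lists, A1bg (female-biased) fell by 3.07 on the log2 scale in WT on ethanol (limma adjusted p = 0.04535), a call not made without WT ethanol library 2, where the difference was −2.49 (limma adjusted p = 0.07316). Slco1a1 (male-biased) fell by 3.77 in LKO (limma adjusted p = 0.0309), a call not made without LKO control library 4, where the difference was −3.2 (limma adjusted p = 0.1003). The part of sex-biased expression in the sulfotransferase values was not tested.

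**Figure D5:**
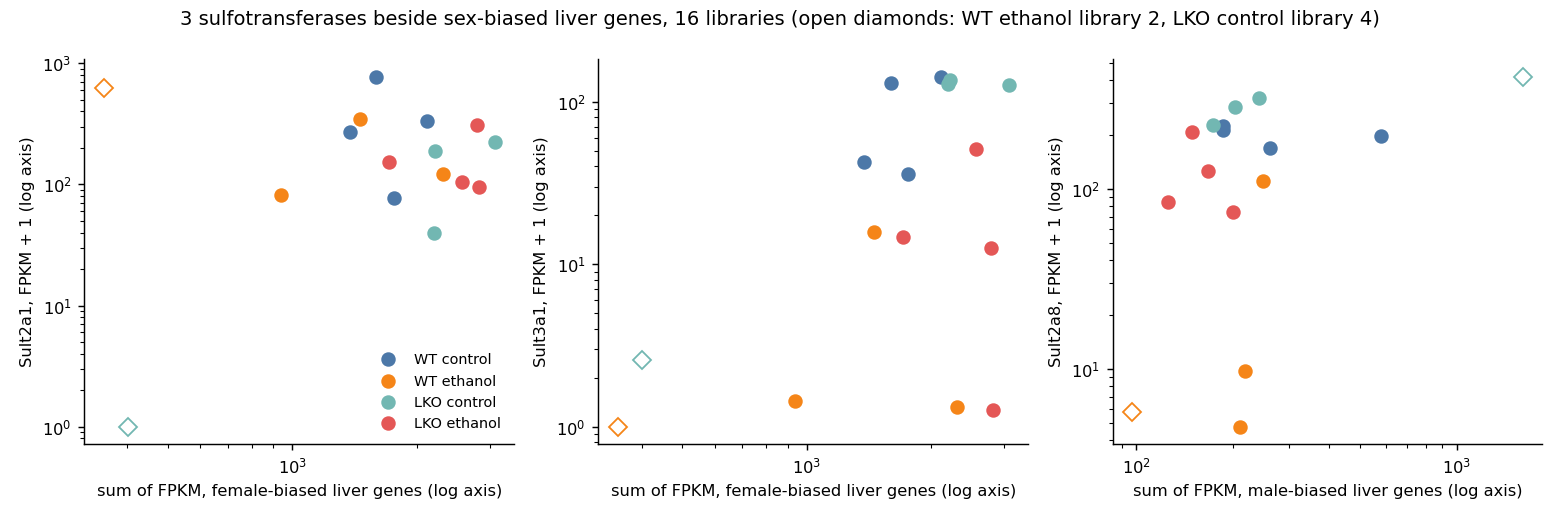
FPKM + 1 of Sult2a1 and Sult3a1 against the summed FPKM of 13 female-biased liver genes, and of Sult2a8 against that of 12 male-biased genes, in 16 libraries on log axes. LKO control library 4 (open diamond) has the highest male-biased sum, 1606 FPKM, with the highest Sult2a8, and WT ethanol library 2 has the lowest female-biased sum with high Sult2a1.

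Markers of other liver cells were read in the same libraries. Kupffer cell and macrophage markers (9 of 9 above 0) summed to 172.6 to 431.7 FPKM in WT control and 306.3 to 597.3 in WT ethanol libraries, and of the 9 only Marco passed the threshold with all libraries, higher in WT on ethanol by 1.71 (limma adjusted p = 0.03789), while Adgre1 (−0.15), Timd4 (−0.17) and Vsig4 (−0.44) were below 0. Cd68 passed as well without WT ethanol library 2 (1.47, limma adjusted p = 0.03745), and there Adgre1 (0.06), Timd4 (−0.03) and Vsig4 (0.32) lay nearer to or above 0. In LKO the sums were 148.8 to 533.4 and 114.2 to 597.7 FPKM. Stellate cell markers (6 of 6 above 0) summed to 38.2 to 125.9 FPKM in WT control and 16.3 to 164.0 FPKM in WT ethanol libraries, and of the 6 only Des passed, higher by 0.93 (limma adjusted p = 0.02956), while Dcn (−0.34, and 0.75 without WT ethanol library 2) and Reln (−0.09, and −0.28) were below 0. Endothelial, cholangiocyte, lymphocyte, neutrophil, intestinal and pancreatic lists had 0 genes past the threshold with all libraries, and without WT ethanol library 2 the endothelial Lyve1 rose on ethanol by 2.58 in WT (limma adjusted p = 0.002437) and by 1.75 in LKO (limma adjusted p = 0.01767). The endothelial Clec4g (−0.94), Kdr (−0.35) and Stab2 (−0.39) were below 0 in WT in that fit. Lymphocyte markers summed to at most 3.02 FPKM in any library. The hepatocyte marker sum was 60410 to 74010 FPKM in WT control and 43470 to 73320 FPKM in WT ethanol, and 57100 to 73420 and 55980 to 71920 FPKM in LKO. Their part in the sulfotransferase differences was not tested.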

How the data were processed

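Liver RNA libraries of 16 mouse samples in 4 groups were placed in their groups by the treatment label. The authors deposited 1 table of FPKM values for 35275 gene IDs. Per the submitters' processing notes, the tools included fastp, STAR 2.6.1, HTSeq and DESeq2 and the build was mm10; their roles, the annotation and the strand setting are not given in the sources used here, so overlapping or antisense genes can share reads. Symbols (34490 IDs) and positions came from GENCODE M21 on GRCm38.

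Genes with FPKM of at least 1 in at least 4 libraries were kept (11298). The test used log2(FPKM + 1), which understates changes of low genes, in a group-means model over 16 libraries (limma 3.58.1, R 4.3.3, eBayes with trend), two-sided, with Benjamini-Hochberg adjustment over all genes kept and a threshold of 0.05. Low FPKM values were whole multiples of 1 read: for 20520 genes measured in 4 or more libraries, 100% of values lay within 0.1 of a whole read. These reads gave the totals, 9890475 to 24768569 per library, and were used for voom. On simulated reads for ethanol in LKO (11064 genes), 98.5% of genes changed 4-fold were called, 5.88% of calls were unchanged genes, and 0 genes were called in a comparison without change. These shares hold for the simulated spread only. In the data for ethanol in LKO, Sult3a1 (−2.22, SE 1.25) and Sult2a1 (2.04, SE 1.26) differed by more than 4-fold. Neither was called (limma adjusted p = 0.6577 and 0.7127), so the shares do not give the power for genes with such a spread.

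Alternatives were other pseudocounts, filters, scalings, array weights (gene-by-gene method, used after the REML method did not converge), a term for the sides, subsets of libraries, voom, and leaving out each library. The members, lists and tests were chosen with earlier results of these data known, and the fit that left out both libraries standing apart was added after seeing the data. Named were the 8 members, Zfp36l1, Cyp2b10, the nearest genes by Spearman rho (5 for Sult3a1 and Sult2a8, 1 for the others) and list genes that passed, at most 4 per comparison. Beyond this rule, Sult3a2, Sult2a2, Papss2, Slc26a1, Csad, Adgre1, Timd4, Vsig4, Dcn, Reln, Clec4g, Kdr and Stab2 were named after their values were seen. Motifs and coding identity were computed with Biopython 1.88. The list of nuclear receptors and cofactors is not reported here.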

Additional observations from a re-analysis of the deposited data

Results flagged for a closer look

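In 3 of the 32 groups of 4 values (8 genes in 4 groups), 1 library lay far from the other 3 by Dixon's ratio, the gap to the nearest value over the whole range on the log2(FPKM + 1) scale, above its 95% critical value. Chance marks about 5% of such groups. Sult3a1 in WT ethanol library 1 was 14.7 FPKM against 0 to 0.431 in the others (ratio 0.87). Sult3a1 in LKO control library 4 was 1.56 FPKM against 125 to 135 (ratio 0.981). Sult5a1 in WT ethanol library 4 was 0.655 FPKM against 2.19 to 2.46 (ratio 0.889). On the FPKM scale itself these 3 groups also passed (ratios 0.971, 0.927 and 0.849), and so did Sult2a8 (0.954) and Sult1b1 (0.872) in WT ethanol, both through library 1, which makes 5 groups.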

How the results depend on the processing

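No paired analysis was possible because the labels give the libraries no shared replicate numbers; some sample numbers in the titles are adjacent across diets, but no label says that this pairs animals. In the fit as reported limma called 0 of 8 genes in each of 4 comparisons. Array weights were 0.278, 0.042, 4.998 and 1.056 for WT ethanol libraries 1 to 4. With them limma called 3 for ethanol in LKO (7.69% of all genes). Between genotypes it called 1 on the control diet (Sult5a1, limma adjusted p = 0.04874, against 2.3%) and 6 on ethanol (30.7%). In the interaction it called 1 (Sult2a8, limma adjusted p = 0.01067, against 4.48%). WT ethanol library 1, which kept the most Sult3a1 and Sult2a8, counted little there. Nothing is read from those calls on ethanol and in the interaction, as when that library was left out. With a term for the sides and without WT ethanol library 2, limma called 3 for ethanol in LKO (10.7% of all genes). In the same fit it called 1 between genotypes on ethanol (Sult5a1, against 1.58%). With LKO libraries alone it called 2 (Sult1a1 and Sult2a8, against 2.2%). Leaving out 1 library gave 0 to 1 for ethanol in LKO (3.62% of all genes in the fit with 1), 0 to 2 between genotypes on ethanol (3.43% in that with 2) and 0 to 1 in the interaction (0.0531%). The number of genes without overlap in WT was 3 to 4.

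Differences that turned were, between genotypes on the control diet, Sult3a1 (−1.08 to 0.83 with 1 library left out, 0.83 being without LKO control library 4, and 0.83 without both libraries that stand apart), Sult1b1 (−0.34 to 0.01) and Sult1d1 (−0.21 to 0.01), both highest without WT control library 2, and Sult1d1 with median-of-ratios scaling (0.02). On ethanol they were Sult2a1 with array weights (0.41) and Sult1c2 without WT ethanol library 3 or 4 or LKO ethanol library 1 (−0.11, −0.24 and −0.21; up to 0.46 with another left out). In the interaction they were Sult1a1 (−0.04 with array weights, −0.11 with the term for the sides, −0.05 to 0.62 with 1 left out, lowest without WT ethanol library 2, and −0.17 without both libraries), Sult1c2 with array weights (0.09) and Sult5a1 (−0.07 without WT control library 4, up to 0.63). The cause was not tested. In LKO the sign of the ethanol difference was kept by all 8 genes in all 26 alternatives. Those that leave out a WT library could not change it, because the LKO difference is taken from the LKO libraries. Within the sides the sign of Sult2a1 did turn, as given above. The median of all genes in WT was −0.02, and ran from −0.16 without WT ethanol library 4 to 0.23 with array weights over the alternatives, with −0.12 for equal sums and 0.17 without WT ethanol library 2.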
